A study of Mus musculus with 24 samples.

Results

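The comparison described here sets thymocytes that lacked both Elk-1 and Sap-1 against thymocytes that lacked Elk-1 alone, after 30 min on anti-CD3. It used 6 of the 24 arrays of the series, chosen by their labels: 3 of Elk/Sap KO and 3 of Elk KO cells, each from a different mouse. All mice were male, of the Black 6J strain and 8 weeks old. CD4 and CD8 double-positive (DP) thymocytes were sorted, rested in culture and spun onto plates that were coated with anti-CD3 or left uncoated, and total RNA was hybridised to Affymetrix Mouse430_2 arrays. Elk-1 was missing on both sides of the comparison, so the groups differed by label in Sap-1 only, which is the product of the gene Elk4. Also used were the untreated arrays of the same Elk KO and Elk/Sap KO mice, and the stimulated Sap KO and wild-type arrays, which carry the same Sap-1 difference in mice that kept Elk-1 and share no array with the main comparison. Each of these groups held 3 arrays. The labels do not say how either allele was made or in which cells it was deleted.

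Elk-1, Sap-1 and Net are the ternary complex factors, ETS-family proteins that sit on DNA beside the serum response factor Srf at a short AT-rich site, the CArG box. Phosphorylation by ERK kinases turns them into activators of immediate early genes, among them the Egr and Fos families. In DP thymocytes the T cell receptor drives this route during positive selection, and the series asks what these factors do there.

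Few genes differed past the test, with differences of 1.82-fold to 16.8-fold. Of 18193 genes, 8 differed between stimulated Elk/Sap KO and Elk KO cells in limma's moderated test (Benjamini-Hochberg adjusted p under 0.05), which is 0.044% of the genes. The 4 that were higher (0.022%) were Ctse, Nmnat1, Insl5 and Mgat5, and the 4 that were lower (0.022%) were Elk4, Ncoa7, Mid1 and Egr2. At an unadjusted p under 0.05 there were 942 lower genes (5.18%) against 421 higher ones (2.31%), while the median difference over all genes was 0.002 on the log2 scale. All differences below are log2 signal of Elk/Sap KO minus Elk KO unless stated, with the standard error from the fit. The number of arrays limits the precision, and a bulk signal cannot tell fewer cells of a type from less RNA per cell.

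The 6 arrays differed in some quality measures. No pair of arrays in the series correlated above 0.9962. Actb, whose 3′ probe set gains on its 5′ one when RNA is broken, had a 3′ minus 5′ difference of 0.381, 0.453 and 0.603 in Elk KO mice 1 to 3 and 0.648, 1.05 and 0.545 in Elk/Sap KO mice 1 to 3. The dap spike-in, a bacterial RNA, had a 3′ signal of 9.516 to 9.983 in Elk KO and 10.054 to 10.356 in Elk/Sap KO. In stimulated wild-type mice 1, 2 and 3 it was 6.894, 7.335 and 9.79. Stimulated Sap KO mice 1, 2 and 3 had 6.991, 9.527 and 7.348. The Actb difference was 0.151 to 0.359 in these wild-type and 0.182 to 0.203 in these Sap KO arrays. Levels set across these groups and the Elk KO or Elk/Sap KO groups carry those differences, whose part was not tested. The stimulated array of Elk/Sap KO mouse 3 lay closer to the Elk KO arrays (r = 0.9893 to 0.9932) than to those of Elk/Sap KO mice 1 (r = 0.9837) and 2 (0.988). Without it 127 genes were called, 23 higher and 104 lower, against 8 with it. Without the stimulated array of Elk KO mouse 3 there were 28, and without that of Elk/Sap KO mouse 2 there were 5. The untreated array of Elk/Sap KO mouse 2, which had the widest relative log expression (interquartile range 0.782 against 0.182 to 0.383 in the others), is not in the comparison but adds to the shared estimate of the spread. It is also 1 of the 3 arrays behind each untreated Elk/Sap KO mean, and the untreated list medians below were not taken without it. Without that array 25 genes were called, and 15 without the untreated array of Elk/Sap KO mouse 3. The share of RNA quality in the results below was not tested.

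The start-site windows of Egr2 and Ncoa7, which fell, and of Zfp36 and Srf, which anti-CD3 raised in wild-type cells, are shown because they hold the site that ternary complex factors and Srf share. They are from RefSeq on GRCm38.p6, read 5′ to 3′ on the gene's strand, with the CArG box in capitals. Zfp36 encodes a protein that speeds mRNA decay, and Srf is the partner itself.
Egr2, chr10:67537446-67537545, plus strand: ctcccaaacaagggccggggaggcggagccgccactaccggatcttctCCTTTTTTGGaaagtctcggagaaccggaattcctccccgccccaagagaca
Egr2, a second annotated start, chr10:67537787-67537816, plus strand: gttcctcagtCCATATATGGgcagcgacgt
Ncoa7, chr10:30655888-30655987, minus strand: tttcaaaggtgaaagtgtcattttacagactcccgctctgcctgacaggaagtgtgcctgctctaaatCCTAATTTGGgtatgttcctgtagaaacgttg
Zfp36, chr7:28379249-28379348, minus strand: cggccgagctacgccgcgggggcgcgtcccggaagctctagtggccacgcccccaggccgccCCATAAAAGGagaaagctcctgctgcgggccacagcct
Srf, chr17:46556183-46556282, minus strand: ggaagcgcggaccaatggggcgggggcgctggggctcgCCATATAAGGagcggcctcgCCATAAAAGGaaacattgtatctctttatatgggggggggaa

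The windows were searched over 250 bases before to 50 bases after each annotated start, on both strands, for the CArG box and for the ETS core CCGGAA, which do not overlap each other. A CArG box was found for 1.81% of the 27025 genes in the table and CCGGAA for 16.7%. Among the 8 called genes, 7 had a window, and 2 of them, Egr2 and Ncoa7, held a CArG box. Counted from the start site, the box began at position −72 for both of these Egr2 starts and at −52 for Ncoa7. Of the 45 genes that wild-type cells raised at least 2-fold, 32 had a window and 5 of these held a box: Dusp5, Egr2, Ncoa7, Srf and Zfp36. CCGGAA was found for 9 of those 32 and for 4 of the 7 called genes. These were Egr2 and Elk4, which fell, and Mgat5 and Nmnat1, which rose. A match is a string of letters, not a measured site.

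Elk4 itself was checked first. Its log2 signal was 10.754, 10.542 and 10.987 in the Elk KO arrays and 7.441, 7.508 and 7.819 in the Elk/Sap KO arrays. The groups did not overlap, and every Elk/Sap KO array was low. The difference was −3.17 ± 0.27, a 9.01-fold fall (adjusted p = 3.45e-07), and it was −3.63 in untreated cells and −3.08 in Sap KO against wild-type cells. The other 3 Elk4 probe sets differed by −0.66, 0.15 and −0.51 and did not pass, and the labels do not place the deleted stretch against any probe set. Elk1, whose signal of 4.538 and 4.447 in the groups lay in the range of Xist in these male cells (at most 5.069), differed by −0.09, so this probe set checks nothing. Elk3, which encodes Net, differed by −0.43 (adjusted p = 0.855), with all 3 Elk/Sap KO arrays at 7.944 to 8.113 and all 3 Elk KO arrays at 8.375 to 8.465. Srf differed by 0.16 (adjusted p = 0.977), and by −0.04 without the stimulated array of Elk/Sap KO mouse 3.

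**Figure D1:**
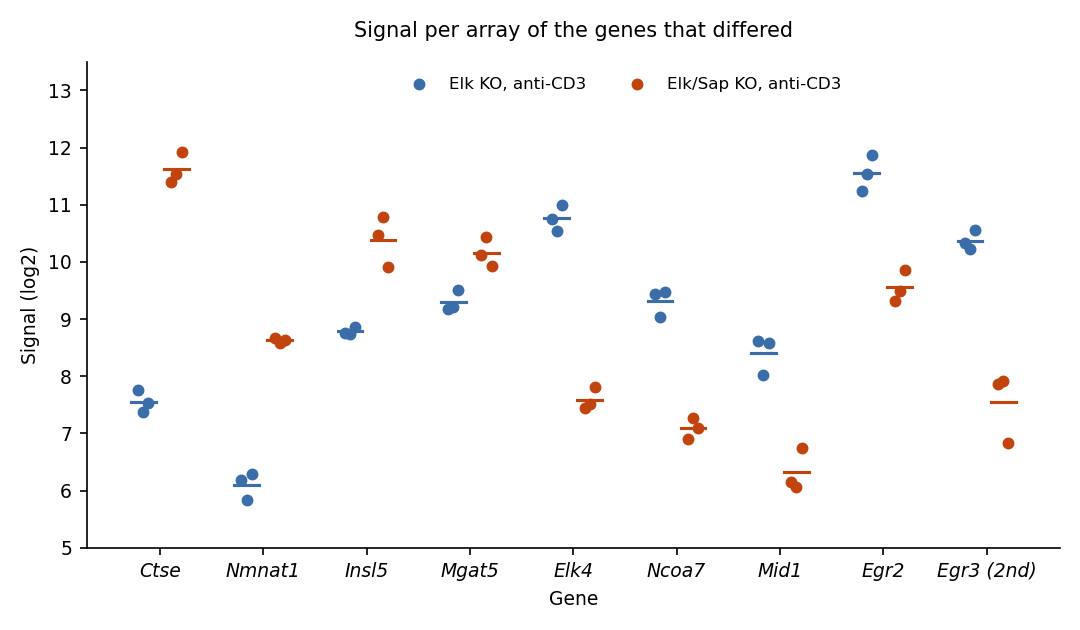
Log2 signal of each stimulated array for the 8 genes that differed and for the second Egr3 probe set, with 3 Elk KO arrays (blue) and 3 Elk/Sap KO arrays (orange) per gene and a line at each mean. No gene's groups overlap, and the widest gap is that of Ctse, 7.376 to 7.759 against 11.402 to 11.923.

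Egr2, a zinc finger factor that T cell receptor signals induce and that positive selection draws on, was the immediate early gene that passed the test. Elk KO arrays had it at 11.244, 11.54 and 11.875 and Elk/Sap KO arrays at 9.321, 9.488 and 9.866. All 3 Elk/Sap KO arrays were below all 3 Elk KO arrays. Egr2 fell by 1.99 on the log2 scale (SE 0.32), a 3.99-fold difference with adjusted p = 0.0107. A second Egr2 probe set, at 10.422, 10.16 and 10.558 against 9.402, 8.81 and 8.449, differed by −1.49 (adjusted p = 0.0273 over all probe sets). The Egr2 call was lost without the stimulated array of Elk KO mouse 2 (adjusted p = 0.0664), Elk/Sap KO mouse 1 (0.106) or Elk/Sap KO mouse 2 (0.101), while the difference stayed between −2.15 and −1.83.

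In resting cells Egr2 was low and did not differ past the test. Untreated Egr2 was 5.335, 3.962 and 4.567 in Elk KO and 4.749, 3.659 and 4.676 in Elk/Sap KO, so the untreated groups overlapped and lay near the Xist level. Anti-CD3 raised Egr2 in both genotypes, by a fitted 6.93 in Elk KO cells (adjusted p = 5.47e-12) and 5.20 in Elk/Sap KO cells (adjusted p = 1.2e-09). With the untreated signal at background, these rises are lower bounds, and the difference between them is not a measured difference of rises. As fitted it was −1.73 ± 0.46 (adjusted p = 0.808, and 0.031 with array weights). In Sap KO against wild-type cells Egr2 differed by −1.38 after stimulation (adjusted p = 0.206). The second Egr2 probe set differed by −1.45 there and passed (adjusted p = 0.0175 over all probe sets).

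Egr3, a close relative that acts with Egr2 in thymocytes, gave different answers from its probe sets. The one that was brighter on average over the 24 arrays, and so stood for the gene, was at 6.682, 6.565 and 6.535 in Elk KO and 6.255, 6.122 and 6.122 in Elk/Sap KO, a difference of −0.43 (adjusted p = 0.636). The other one was picked once its values had been seen, and was at 10.324, 10.226 and 10.559 in Elk KO and at 7.872, 7.924 and 6.837 in Elk/Sap KO. In both probe sets every Elk/Sap KO array was below every Elk KO array. In the one picked later the difference was −2.83 ± 0.25, or 7.09-fold (adjusted p = 3e-06 over all probe sets), and it was called whichever of the 24 arrays was left out. It stood near background in untreated cells, at 2.725 to 3.191 and 2.38 to 3.025, and rose by a fitted 7.35 in Elk KO and 4.81 in Elk/Sap KO cells, both lower bounds for that reason. The fitted difference between the responses was −2.54 ± 0.36 (adjusted p = 0.0284), which carries the same limit. In stimulated Sap KO against wild-type cells this probe set differed by −2.31 (adjusted p = 4.97e-05), and the test between the 2 Sap-1 differences did not pass (−0.51 ± 0.36, adjusted p = 1).

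Egr1, another member of the family and a direct early target of ERK signals, was at 13.268, 13.357 and 13.19 in Elk KO and 12.148, 12.04 and 12.424 in Elk/Sap KO. The groups did not overlap, with all Elk/Sap KO arrays low. The difference was −1.07 ± 0.27, or 2.1-fold, and did not pass over the 24 arrays (adjusted p = 0.25). It did pass when the fit held only the 6 arrays compared (adjusted p = 0.0304) or only the 12 stimulated arrays (0.00164), and without the untreated array of Elk KO mouse 1 (0.0319). Nab2, which encodes a corepressor of Egr proteins that they also induce, was at 6.274, 6.23 and 6.139 against 5.193, 4.984 and 4.928. Again no arrays overlapped, and the difference of −1.18 had an adjusted p of 0.307 over 24 arrays, 0.00787 over the 6, 0.089 over the 12 stimulated ones and 0.0172 without the untreated array of Elk/Sap KO mouse 2. Id3, an inhibitor of E proteins downstream of Egr1, differed by −0.31 (adjusted p = 0.812) with overlapping groups.

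Of the 12 measured genes of the Egr, Nab and Id axis, 1 was called (Egr2, lower), where 0.022% of all genes were called lower. At an unadjusted p under 0.05, 4 were lower (5.18% of all genes), and 10 were below 0 (49.5%). Their median difference was −0.35. In untreated cells it was −0.21, with 10 of the 12 below 0 (44.7% of all genes). In stimulated Sap KO against wild-type cells it was −0.16, again with 10 of the 12 below 0 (57.8% of all genes). The wider list of immediate early genes under ternary complex factors and Srf had 28 members measured. Of these 1 was called, again Egr2, 13 were lower at an unadjusted p under 0.05 and none was higher, where 5.18% and 2.31% of all genes were. In all, 23 of the 28 were below 0, against 49.5% of all genes, with a median of −0.40. The arrays did not overlap for 12 of them, all lower (5.37% of all genes). The median of this list over the array means of Elk KO cells was −0.45, −0.18 and −0.43 in Elk/Sap KO mice 1, 2 and 3. In untreated cells the list was low too, with a median of −0.25 and 19 of the 28 below 0 (44.7% of all genes). In stimulated Sap KO against wild-type cells its median was −0.19, with 21 of the 28 below 0 (57.8% of all genes). Without the stimulated array of Elk/Sap KO mouse 3, 4 of the 28 were called lower (Dusp2, Egr2, Junb and Zfp36), where 0.572% of all genes were. In that fit 9 of the 28 were lower at an unadjusted p under 0.05, against 13 with the array, while the share of all genes was 9.31% against 5.18%.

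**Figure D2:**
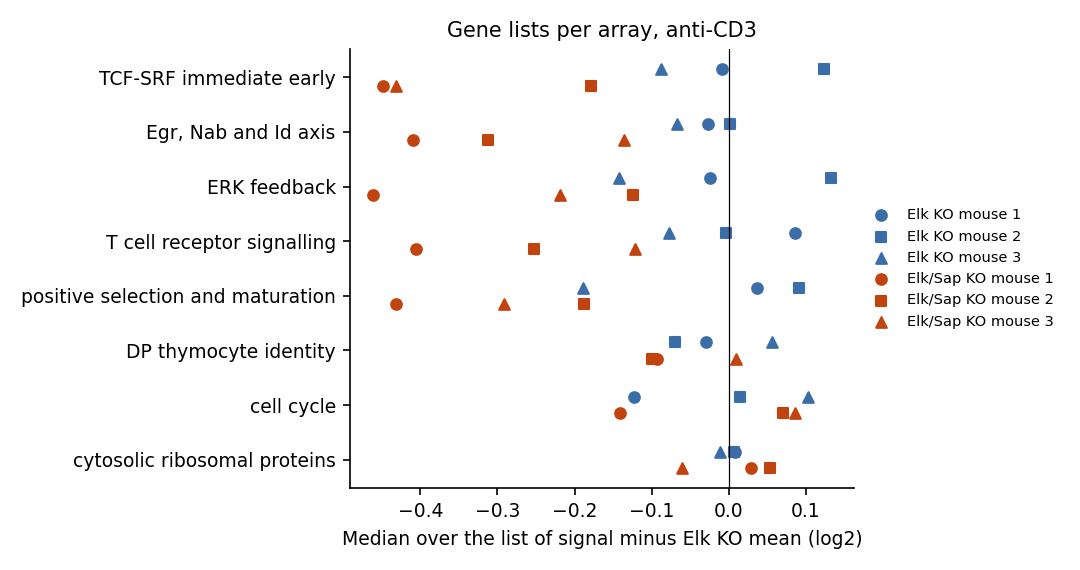
Median over each gene list of log2 signal minus the Elk KO mean, one point per stimulated array (blue Elk KO, orange Elk/Sap KO; circle, square and triangle for mice 1, 2 and 3). For the early genes under ternary complex factors and Srf the Elk/Sap KO arrays lie at −0.449, −0.179 and −0.432 and the Elk KO arrays at −0.088 to 0.124, while the cell cycle list overlaps between the groups.

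Junb, a Jun-family partner in AP-1, came closest to passing among the remaining early factors. It was at 9.423, 9.919 and 8.747 in Elk KO and 7.864, 8.045 and 8.429 in Elk/Sap KO. The groups did not overlap, although Elk KO mouse 3 was low within its group. The difference was −1.25 ± 0.26 (adjusted p = 0.0946), −1.56 (adjusted p = 0.0107) without that array and −1.41 (0.0338) without the stimulated array of Elk/Sap KO mouse 3. Fos, the partner of Jun proteins in AP-1, was at 11.019, 11.503 and 10.567 against 10.081, 9.746 and 9.467, lower in every Elk/Sap KO array, with a difference of −1.27 ± 0.55 (adjusted p = 0.611, with 0.0349 over the 12 stimulated arrays and 0.24 over the 6 compared). Fosb differed by −0.81 with 1 Elk KO array at 4.913, inside the Elk/Sap KO range. None of the 14 genes of the AP-1 family was called, 3 were lower at an unadjusted p under 0.05 (5.18% of all genes), and their median was −0.22.

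Other early genes showed differences of smaller size that did not pass. Zfp36 was at 11.122, 11.241 and 10.901 in Elk KO and 9.991, 10.287 and 10.6 in Elk/Sap KO (−0.80, adjusted p = 0.13). Btg2, which encodes an antiproliferative protein of mRNA decay, was at 12.106, 12.031 and 11.217 against 11.002, 10.78 and 10.481 (−1.03, adjusted p = 0.108). In both genes the groups did not overlap. Zfp36 passed without the stimulated array of Elk/Sap KO mouse 3 (−0.95, adjusted p = 0.0266) and Btg2 without that of Elk KO mouse 3 (−1.31, 0.00779). Ier2 differed by −0.65 (adjusted p = 0.53), and Nr4a1, an orphan receptor whose level follows the strength of receptor signals, by −0.65 (adjusted p = 0.844). Mcl1, a survival factor of the Bcl2 family, differed by −0.21. Cd69, the activation marker, was at 10.213, 10.343 and 10.845 in Elk KO and 10.825, 10.401 and 10.338 in Elk/Sap KO. Those groups overlapped throughout, and the difference was 0.05 ± 0.54 (adjusted p = 0.998), with −0.1, −0.07 and −0.01 without the stimulated array of Elk/Sap KO mouse 1, Elk KO mouse 1 or Elk KO mouse 2.

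Anti-CD3 raised 60 genes in wild-type cells (0.33%), 45 of them at least 2-fold, and these 45 form a list taken from arrays outside the comparison. Of them, 2 fell in Elk/Sap KO cells (Ncoa7 and Egr2), where 0.022% of all genes did. At an unadjusted p under 0.05, 11 were lower and none was higher, against 5.18% and 2.31% of all genes. In all 27 were below 0 (49.5% of all genes) and 18 above, and the median was −0.06. The list thus held a few large negative differences beside genes close to 0. Genes near 0 include Nfkbiz, an atypical IkB protein, at 0.21, Itpkb, a kinase that limits inositol trisphosphate, at 0.06, and Orai1, a calcium channel subunit, at −0.04, which were picked from the list after their values were seen. No gene of the list was called higher. In untreated cells the list had a median of −0.24, with 33 of the 45 below 0 (44.7% of all genes).

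**Figure D3:**
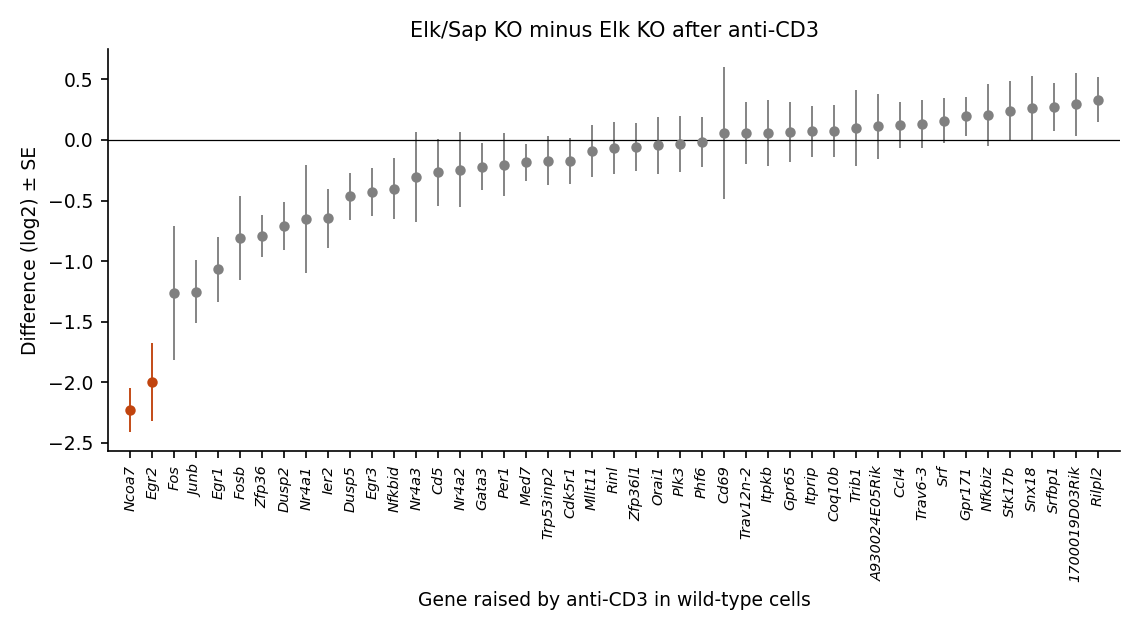
Difference in log2 signal (Elk/Sap KO minus Elk KO after anti-CD3, ± SE of the fit) for the 45 genes raised at least 2-fold by anti-CD3 in wild-type cells, in order. The called genes, orange, are Ncoa7 at −2.23 and Egr2 at −1.99, and 27 of the 45 points lie below 0.

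Ncoa7 encodes a nuclear receptor coactivator that also has a role in protection from oxidative stress. It was at 9.436, 9.043 and 9.468 in Elk KO and 6.9, 7.274 and 7.087 in Elk/Sap KO. Every Elk/Sap KO array was low, and the groups were far apart. The gene fell by 2.23 on the log2 scale (SE 0.19), or 4.69-fold (adjusted p = 3.45e-07). It was also lower without stimulation, by −1.44 (adjusted p = 0.000419), with untreated signals of 8.156, 8.359 and 8.426 against 6.919, 6.339 and 7.356. Anti-CD3 raised Ncoa7 by 1.00 in Elk KO cells (adjusted p = 0.0143), and the response in Elk/Sap KO cells was 0.22 (adjusted p = 0.709). The difference between these responses was −0.79 and did not pass (adjusted p = 0.808). In Sap KO against wild-type cells the stimulated difference was −2.52 (adjusted p = 2.65e-08). A dimmer second Ncoa7 probe set differed by 0.26, and the mean of both by −0.99 (adjusted p = 0.404).

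Mid1, an X-linked gene for a ubiquitin ligase on microtubules, was at 8.618, 8.03 and 8.58 in Elk KO and 6.151, 6.063 and 6.746 in Elk/Sap KO. The groups were separate, and the fall was 2.09 (SE 0.34; adjusted p = 0.012), with −2.49 in untreated cells (adjusted p = 0.00109). The means of the stimulated groups place the high level in Elk KO cells: 6.138 in wild type, 5.316 in Sap KO, 8.409 in Elk KO and 6.32 in Elk/Sap KO. The wild-type and Sap KO arrays also differed from the others in dap and Actb signals. The Sap KO difference was −0.82 and did not pass (adjusted p = 1). The call in Elk/Sap KO was lost without the stimulated array of Elk KO mouse 1 (adjusted p = 0.114) or Elk/Sap KO mouse 1 (0.106) or 2 (0.129), and over the mean of its probe sets (−0.71, adjusted p = 0.158). The other 2 Mid1 probe sets lay near background and differed by −0.05 and −0.0011.

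Ctse encodes cathepsin E, an intracellular aspartic protease, and had the largest difference of any gene called. It was at 7.759, 7.376 and 7.532 in Elk KO and 11.402, 11.541 and 11.923 in Elk/Sap KO. All 3 Elk/Sap KO arrays were high, and the rise was 4.07 ± 0.20, or 16.8-fold (adjusted p = 2.13e-11). The untreated difference was 3.96, and the difference between the responses was 0.11 ± 0.28 (adjusted p = 0.917). A second Ctse probe set went the other way without passing (−0.82), with 8.107 and 7.732 in Elk/Sap KO mice 1 and 2 but 10.009 in mouse 3. The mean of both was 1.62 (adjusted p = 0.0653).

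Ctse lies on chromosome 1, 7 measured genes from Elk4. Of the 25 genes on each side of Elk4 in the order of the gene table, Ctse was the one called. By mean signal over the 24 arrays, 26 of these 50 genes were at or below the highest Xist signal (5.069), where differences are hard to see. At an unadjusted p under 0.05, 5 of the 50 were higher and 3 lower, against 2.31% and 5.18% of all genes. The median was 0.0065, and the arrays did not overlap in 9 higher (5.65% of all genes) and 4 lower genes (5.37% of all genes). Slc41a1, a magnesium transporter gene 4 places away, was at 7.075, 6.815 and 6.488 against 7.492, 7.958 and 8.14. No arrays overlapped, and the difference of 1.07 narrowly missed the threshold (adjusted p = 0.0559), passing in the fit of the 12 stimulated arrays (0.047) and in 6 of the 24 fits that left out 1 array, at lowest 0.0242 without the untreated array of Elk/Sap KO mouse 2. With mouse as a random block its adjusted p was 0.0424. It was 0.24 over the 6 arrays compared and 0.514 over the mean of its probe sets, where the difference was 0.53. Rab7b, 6 places away and picked after its values were seen, differed by 0.62 (adjusted p = 0.4). In Sap KO against wild-type cells these 3 genes differed by 4.42, 1.02 and 0.80.

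**Figure D4:**
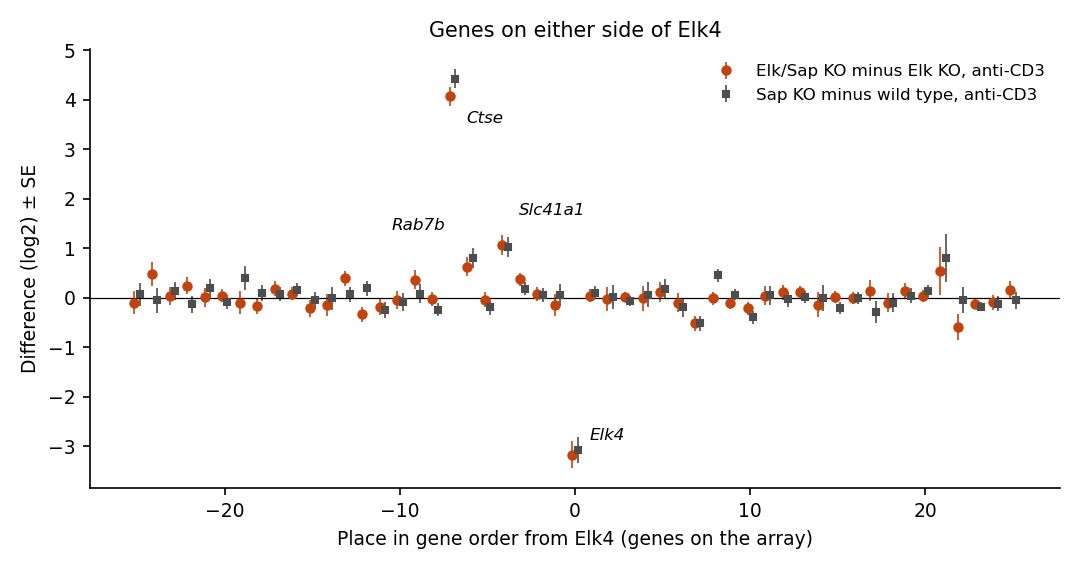
Difference in log2 signal (± SE) for Elk4 and the 25 measured genes on each side of it, by place in gene order, in stimulated Elk/Sap KO minus Elk KO (orange circles) and stimulated Sap KO minus wild type (grey squares). Ctse, at place −7, stands at 4.07 and 4.42, Slc41a1 at 1.07 and 1.02, and Elk4 at −3.17 and −3.08, with most other genes near 0. By mean signal over the 24 arrays, 26 of the 50 neighbours were at or below the highest Xist signal.

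Nmnat1, which makes NAD in the nucleus, was at 6.181, 5.837 and 6.283 in Elk KO and 8.665, 8.584 and 8.643 in Elk/Sap KO. The Elk/Sap KO arrays were high and close together, and the rise was 2.53 ± 0.16, or 5.78-fold (adjusted p = 3.08e-09). Its second probe set rose by 3.39 (adjusted p = 5.82e-08 over all probe sets). Insl5, on the same chromosome, 4, encodes an insulin-like peptide. It was at 8.755, 8.744 and 8.862 against 10.467, 10.789 and 9.91. All Elk/Sap KO arrays were above all Elk KO arrays, with a rise of 1.60 ± 0.20 (adjusted p = 0.000332). Mgat5, on chromosome 1, encodes a Golgi enzyme that branches N-glycans and so tunes receptors at the T cell surface. It was at 9.174, 9.204 and 9.5 against 10.116, 10.436 and 9.93, separate but the smallest of the called differences, at 0.87 ± 0.15 (adjusted p = 0.024). The Mgat5 call was lost over the 6 arrays alone (0.24), over the 12 stimulated arrays (0.0897) and after centring each array (0.062). Its other probe sets differed by 0.36 and 0.32 and did not pass, and the mean of all was 0.52 (0.0653). The call was also lost without the stimulated array of mouse 1 (0.24) or 2 (0.207) of Elk KO or mouse 1 (0.106) or 2 (0.305) of Elk/Sap KO.

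Loss of Sap-1 could be read in 2 further comparisons. In untreated cells of the same mice, 21 genes were called (0.115%), 4 higher (0.022%) and 17 lower (0.0934%), and all 8 genes called after stimulation had the same sign, with 6 of them called. Egr2 (−0.26) and Mgat5 (0.63, adjusted p = 0.126) were the exceptions. The untreated count was 3611 without the untreated array of Elk/Sap KO mouse 3, and 8 without that of Elk/Sap KO mouse 2 or Elk KO mouse 2. In stimulated Sap KO against wild-type cells, which share no array with the main comparison, 13 genes were called (0.0715%), 11 higher (0.0605%) and 2 lower (0.011%). That count was 8 without the stimulated array of Sap KO mouse 3, and 27 and 20 without the untreated arrays of Elk/Sap KO mice 2 and 3, which enter the shared spread. All 8 genes again had the same sign and 6 were called, all but Egr2 and Mid1. The second Egr2 probe set did pass there when each probe set was tested (−1.45, adjusted p = 0.0175). Ctse, Nmnat1, Insl5, Elk4 and Ncoa7 were called in all 3 comparisons. The test of whether the stimulated Sap-1 difference depended on Elk-1 called 3 genes (0.0165%), Gcsh, Rbp7 and Nmnat1, all with the lower difference in cells without Elk-1 (0.0165%). Igf2bp3, an RNA-binding protein gene, and Pmepa1, which encodes an inhibitor of TGF-beta signals, were called lower in untreated cells (−1.53 and −1.39). After stimulation they differed by −1.38 and −1.07 with separate groups and did not pass. Between the responses of Elk/Sap KO and Elk KO cells to anti-CD3, limma called 0 genes (0%), with 625 at an unadjusted p under 0.05 (3.44%), or 985 with mouse as a block. Without the untreated array of Elk/Sap KO mouse 3 it called 1 gene. With array weights it called 8, among them Egr2, and over the mean of a gene's probe sets it called 1, Egr3 (−1.57, adjusted p = 0.00819).

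**Figure D5:**
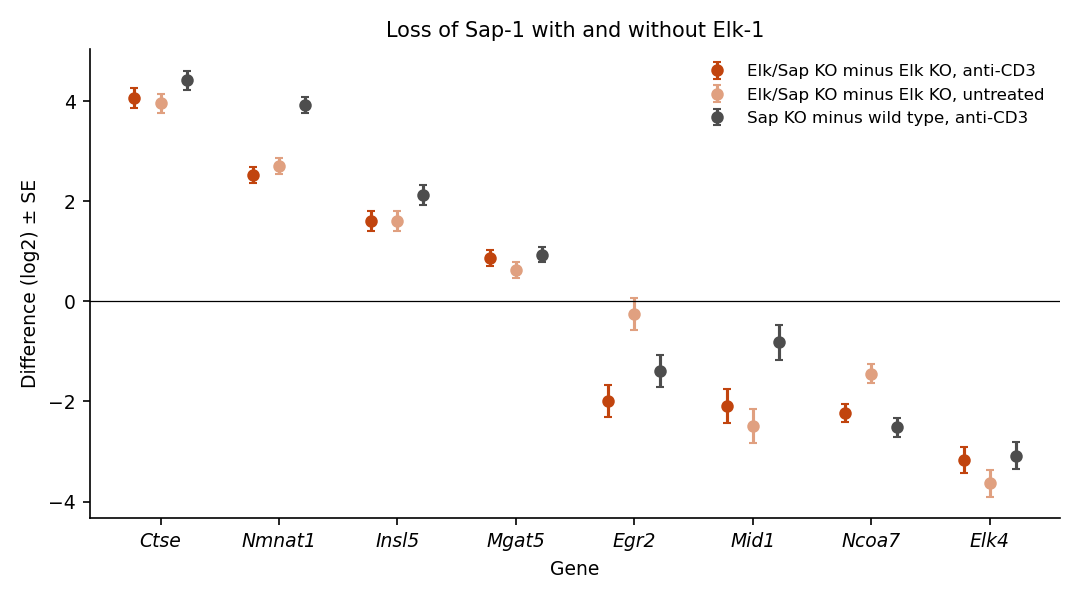
Difference in log2 signal (± SE of the fit) of the 8 called genes where Sap-1 was lost: stimulated Elk/Sap KO minus Elk KO (dark orange), the same untreated (light orange) and stimulated Sap KO minus wild type (grey). Ctse lies at 4.07, 3.96 and 4.42, whereas Egr2 lies at −1.99 and −1.38 in the stimulated comparisons and at −0.26 untreated.

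Of the 20 measured genes that restrain ERK signals none was called, and the median was −0.28. At an unadjusted p under 0.05, 7 were lower and 2 higher, against 5.18% and 2.31% of all genes. In untreated cells the median was −0.26, with 15 of the 20 below 0 (44.7% of all genes). In stimulated Sap KO against wild-type cells it was −0.03, with 11 of the 20 below 0 (57.8% of all genes). Dusp2, a nuclear phosphatase of MAP kinases, was at 10.816, 10.988 and 10.751 in Elk KO and 9.848, 9.794 and 10.786 in Elk/Sap KO. Elk/Sap KO mouse 3 lay within the Elk KO range, and the difference of −0.71 (adjusted p = 0.355) became −1.03 without it (adjusted p = 0.00732). Dusp5, a nuclear phosphatase that favours ERK, differed by −0.47 (adjusted p = 0.592) with separate groups. The adaptor Dok2, the ERK inhibitor Spred2 and the Ras inactivator Rasa3 differed by −0.67, −0.49 and −0.39, with no overlap of arrays in any of them. They were named for the smallest unadjusted p in the list, a choice that favours separate arrays. Dok2 passed without the stimulated array of Elk/Sap KO mouse 3 (−0.83, adjusted p = 0.0266). Over the mean of its probe sets Spred2 differed by −0.05 (adjusted p = 0.999).

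Components of T cell receptor signalling were mostly below 0 by small amounts. None of 25 was called, and the median was −0.27. At an unadjusted p under 0.05, 12 were lower and 1 higher, against 5.18% and 2.31% of all genes. In all, 21 were below 0 (49.5% of all genes). Zap70, the kinase that binds the phosphorylated receptor chains, was at 10.069, 10.054 and 9.613 in Elk KO and 9.098, 9.019 and 9.591 in Elk/Sap KO. The groups did not quite overlap, with mouse 3 of each genotype at the edge of its group. The difference was −0.68 (adjusted p = 0.196), and −0.85 (0.0266) without the stimulated array of Elk/Sap KO mouse 3. Over the mean of the Zap70 probe sets it was −0.36 (0.625). Lcp2, the adaptor SLP-76, differed by −0.53, and by −0.35 over the mean of its probe sets. The phosphatase gene Ptpn22 differed by −0.42 and Cd3e, a receptor chain, by −0.67. Zap70 and these genes were named for the smallest unadjusted p in the list. The same list had a median of −0.24 in untreated cells, where 24 of 25 were below 0 (44.7% of all genes). In stimulated Sap KO against wild-type cells its median was 0.02, and 12 of 25 were below 0 (57.8% of all genes). The array medians of the list were −0.405, −0.253 and −0.122 in Elk/Sap KO mice 1, 2 and 3. The Actb 3′ minus 5′ signal was highest in Elk/Sap KO mice 2 and 1, and its part in these values was not tested.

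Genes of positive selection and maturation had a median of −0.49, the lowest of the lists counted. None of the 27 measured was called. At an unadjusted p under 0.05, 11 were lower and none higher, against 5.18% and 2.31% of all genes, and 22 were below 0 (49.5% of all genes). Klf2, a factor of T cell quiescence and thymic exit, was at 9.136, 10.637 and 9.666 in Elk KO and 7.184, 8.079 and 8.482 in Elk/Sap KO. The groups did not overlap but each was widely spread, and the difference was −1.90 ± 0.41 (adjusted p = 0.122). It passed without the stimulated array of Elk/Sap KO mouse 3 (−2.18, 0.0358). Tox, a nuclear factor needed for the CD4 lineage, was at 8.951, 8.857 and 7.753 against 7.208, 7.101 and 7.345 (−1.30, adjusted p = 0.145). Elk KO mouse 3 was low within its group, and without it the difference was −1.69 (adjusted p = 0.0107). Over the mean of its probe sets Tox differed by −0.77 (adjusted p = 0.297). Socs1, an inhibitor of cytokine signals, differed by −0.90 (adjusted p = 0.374), and by −1.21 (0.043) without the stimulated array of Elk/Sap KO mouse 3. Klf2, Tox and Socs1 were named for being among the smallest unadjusted p values of the list. Cd5, a surface inhibitor that marks the strength of selection, differed by −0.27. The median of the list was −0.55 in untreated cells and 0.07 in stimulated Sap KO against wild-type cells. Over the Elk KO means, its stimulated array medians were 0.036, 0.091 and −0.189 in Elk KO mice 1 to 3. In Elk/Sap KO mice 1 to 3 they were −0.432, −0.188 and −0.291, so the groups met.

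The DP thymocyte markers Cd4 and Cd8a had high signals in both groups, with lower means in Elk/Sap KO. Cd4 was at 11.347, 11.257 and 10.697 in Elk KO and 10.642, 10.448 and 10.871 in Elk/Sap KO, and Cd8a at 12.59 to 12.651 and 12.106 to 12.63. Both genes overlapped between the groups. Cd4 differed by −0.45 (adjusted p = 0.626) and Cd8a by −0.31 (0.611). With array weights both passed, at −0.7 (0.00469) and −0.42 (0.012). Rag1, the recombinase that DP cells express, differed by −0.08, and Rag2 by 0.07. Of 20 genes of DP identity none was called, 4 were lower at an unadjusted p under 0.05 (5.18% of all genes), and the median was −0.03. These 4 were Bcl11b, Lef1 (−0.45), Cd8a and Cd4. Bcl11b, a factor of T cell commitment, was at 12.631, 12.624 and 12.257 against 11.229, 11.651 and 12.091, separate by a small margin (−0.85, adjusted p = 0.355). In untreated cells the median of the list was −0.09, with 18 of the 20 below 0 (44.7% of all genes). In stimulated Sap KO against wild-type cells it was 0.13, with 2 of the 20 below 0 (57.8% of all genes).

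Markers of other cells were compared next. No gene was called among the 19 measured for macrophages and dendritic cells, 11 for B cells, 10 for granulocytes, 5 for erythroid cells, 20 for epithelium and stroma, 13 for double-negative thymocytes and 16 for mature and innate T cells. The median B cell marker was at 4.045 to 4.678 in Elk KO and 4.286 to 4.887 in Elk/Sap KO, with Ms4a1 at 3.944 and 4.477 on average and Cd79a at 4.56 and 4.507. Median macrophage markers were at 4.199 to 4.278 and 4.195 to 4.445, with C1qa at 3.96 and 4.059. Granulocyte markers were at 4.267 to 4.425 and 3.991 to 4.853. These 3 medians are at or below the highest Xist signal, as are the means of Alas2 (4.186 and 4.152), Krt8 (4.476 and 4.339) and Col1a1 (3.458 and 3.488). By mean signal over the 24 arrays, 9 of 11 B cell, 12 of 19 macrophage, 10 of 10 granulocyte, 5 of 5 erythroid, 11 of 20 epithelial and stromal, 6 of 13 double-negative and 7 of 16 mature and innate T cell genes were at or below it. The mature and innate T cell list had array medians of 5.259 to 6.029 in Elk KO and 5.097 to 5.539 in Elk/Sap KO, above the Xist level. H2-Aa, a class II gene of antigen-presenting cells, was at 6.123, 6.867 and 5.576 against 7.31, 8.607 and 5.815, and S100a9 at 4.087, 4.015 and 4.947 against 5.711, 6.215 and 3.955. Both were high in Elk/Sap KO mice 1 and 2 only, and their part in the results was not tested.

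Beyond the called genes, those with the smallest unadjusted p and separate arrays are named here as not passing. Higher in Elk/Sap KO were Cdc20, an activator of the anaphase-promoting complex (0.66, adjusted p = 0.145), Tmem181a (0.88, adjusted p = 0.174), Senp7, a SUMO protease (0.61, adjusted p = 0.145), and, near background, Ccl3, a chemokine (0.91), and Zfp974 (0.47). Lower were Rnpep, an aminopeptidase (−0.94, adjusted p = 0.0533), Cenpb, which binds centromeric repeats (−1.05, adjusted p = 0.0741), Lgals3bp (−0.99, adjusted p = 0.0755), Glipr2 (−0.76, adjusted p = 0.0755) and Zfp827 (−0.61, adjusted p = 0.092). Rnpep, on chromosome 1, was at 7.252 to 7.337 in Elk KO and 6.067 to 6.66 in Elk/Sap KO. The arrays of both groups were clearly apart, and the gene passed over the 12 stimulated arrays (adjusted p = 0.0168), with mouse as a random block (0.0483) and in untreated cells (−0.88, adjusted p = 0.0497). Cenpb and Lgals3bp passed over those 12 arrays too (0.0349 and 0.0399). Over the 6 arrays compared Rnpep (0.218), Cenpb (0.24) and Lgals3bp (0.24) did not pass. Over the mean of probe sets Cenpb differed by −0.57 (0.538), Glipr2 by −0.41 (0.639) and Zfp827 by −0.4 (0.354). Senp7 differed there by 0.37 (0.885), Cdc20 by 0.46 (0.454) and Zfp974 by 0.32 (0.538). These 10 genes were picked for their small p on the same arrays, so a pass in another fit of them is no further support. Without the stimulated array of Elk/Sap KO mouse 3, where 0.572% of all genes were called lower and 0.126% higher, the 7 that passed were Rnpep (0.0136), Cenpb (0.0136), Lgals3bp (0.0266), Glipr2 (0.0284), Zfp827 (0.0376), Tmem181a (0.024) and Senp7 (0.0372). Tle3, a Groucho corepressor chosen after its values were seen, had 2 of 4 probe sets called when each was tested alone (−0.91 and −1.30), but not the one that stood for the gene (−0.57).

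Other lists lay nearer to the median of all genes. For the counts below, 5.18% of all genes were lower and 2.31% higher at an unadjusted p under 0.05. The 24 cytoskeletal genes of Srf and its myocardin-related partners had a median of −0.11 with 1 lower at an unadjusted p under 0.05. The 28 cell cycle genes had a median of 0.0026 with 2 higher and 2 lower, the 46 cytosolic ribosomal protein genes a median of 0.02, the 19 interferon genes of −0.07 and the 18 heat shock genes of 0.04. The 19 NF-kB targets had a median of −0.06, with 2 higher, Ccl3 and Traf1, and none lower at that threshold. The 15 genes of the Nr4a and negative selection list had a median of −0.21, the 16 of survival and death −0.21, the 23 of quiescence and metabolism −0.12 and the 16 of NFAT and calcium −0.08. No gene of these lists was called.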

How the data were processed

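The deposited values are log2 signals that the authors made for 45101 probe sets on each of 24 arrays. Per the submitters' processing notes this was done with RMA in affy (versions: not given in the sources used here). RMA subtracts background, quantile normalizes and summarises probes, so levels are compared within a probe set only. After 64 control probe sets were set aside, 34945 had a single symbol, 932 several and 9160 none; the brightest single-symbol probe set stood for each of 18193 genes. By Entrez identifier, 18032 were found in a GRCm38.p6 gene table, which gave current symbols and gene order.

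The test was limma's (3.58.1, in R 4.3.3), with 8 group means over 24 arrays, two-sided, with Benjamini-Hochberg adjustment at 0.05. Replicates are separate mice per the labels. Untreated and stimulated arrays of a mouse pair by number. Their deviations from the group means correlated at 0.1, 0.201 and 0.851 in Elk KO and 0.686, −0.035 and 0.245 in Elk/Sap KO (8361 genes). Across genotypes the numbers pair nothing. On simulated data with 18193 genes, 100 genes were changed 2-fold and 100 were changed 4-fold. Of these, 76% and 99% were recovered for this comparison, with 7 unchanged genes called. The simulated noise was independent, with the same spread on all arrays, whereas the real arrays differed in quality. These shares check the code and do not give the share of real changes that the test could find.

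The members and lists were chosen with earlier results of these data known. Named genes are the called ones, up to 10 each way by smallest unadjusted p with separate arrays, a fixed set of early genes, and called genes of the other contrasts. Up to 4 per list were also named, by smallest unadjusted p in this same comparison, as were some genes raised in wild type. These are not typical members of their lists, and separate arrays in them are partly a result of the choice. Exceptions are said to be picked after their values were seen. Of the list genes, 28 had no single-symbol probe set. Alternatives tried were other sets of arrays, array weights, centring, a filter on dim genes, probe set rules, blocks, thresholds and leaving out each array.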

Additional observations from a re-analysis of the deposited data

Results flagged for a closer look

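In 4 results an effect differed between conditions by a test of the difference itself. The stimulated Sap-1 difference depended on Elk-1 in 3 genes (0.0165% of 18193, limma, Benjamini-Hochberg), each of them lower in the pair of groups without Elk-1. That test sets the wild-type and Sap KO arrays against the Elk KO and Elk/Sap KO arrays. These differed in dap and Actb signals as well, and the part of this was not tested.

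Gcsh, a subunit of the glycine cleavage system, was at 8.954, 8.91 and 8.691 in stimulated Elk KO and 8.438, 8.945 and 7.312 in Elk/Sap KO arrays, which overlapped. It was at 6.448, 6.927 and 6.986 in wild type and 9.052, 9.005 and 9.003 in Sap KO. So wild-type cells were the low group, and the Sap-1 differences of −0.62 and 2.23 differed by −2.85 ± 0.44 (adjusted p = 0.0161).

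Rbp7, a retinoid-binding protein gene on chromosome 4, was at 5.082, 4.602 and 4.707 in Elk KO, 5.864, 6.039 and 5.53 in Elk/Sap KO, 5.174, 4.748 and 4.074 in wild type and 8.361, 7.718 and 8.334 in Sap KO. Both groups with Sap-1 were near background, so the differences of 1.01 and 3.47 are lower bounds, and the fitted −2.46 ± 0.34 between them (adjusted p = 0.00836) is not an exact difference. The Sap KO arrays were all above the Elk/Sap KO arrays. Nmnat1, also on chromosome 4, rose in both pairs of groups, by 2.53 and 3.93, and these differed by −1.4 ± 0.23 (adjusted p = 0.0245).

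These calls rested on single arrays. Leaving out each of the 24 in turn, Gcsh was called in 19, Rbp7 in 21 and Nmnat1 in 15 fits, with adjusted p up to 0.0826, 0.0568 and 0.152. None of the 3 was called without the stimulated array of Sap KO mouse 1 (0.0714, 0.0563 and 0.152), Sap KO mouse 3 (0.0653, 0.0564 and 0.0673) or Elk KO mouse 1 (0.0826, 0.0568 and 0.128).

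The fitted response of the second Egr3 probe set to anti-CD3 was lower in Elk/Sap KO than in Elk KO cells, by −2.54 (adjusted p = 0.0284 over all probe sets). Its untreated signals were at background, so the rises are lower bounds and this value is not an exact difference. It was picked after its values were seen.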

How the results depend on the processing

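The count of genes called in stimulated Elk/Sap KO against Elk KO cells was 8. It was 7 to 10 with only the 6 arrays, with trend and robust priors, centring, a second quantile normalization, mouse as a random block or a 1.5-fold minimum, and 6 over the mean of probe sets. It was 14 over the 12 stimulated arrays, 13 above a mean log2 signal of 6, 16 when each probe set was tested, 15 at adjusted p under 0.1 and 2049 (827 higher, 1222 lower) with array weights, which gave the untreated array of Elk/Sap KO mouse 2 a weight of 0.069. With the number 1 to 3 as a replicate block it was 14. The numbers are not a pairing across genotypes (r = 0.039, 0.051 and −0.035), and 1 of 3 arrays of each genotype correlated best with its own number. The block brought Btg2 (adjusted p = 0.0115), Glipr2 (0.0199), Cenpb (0.0355) and Ccl3 (0.0388) past the threshold. Leaving out 1 array gave 5 to 127.

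The untreated count of 21 was 2 over those 6 arrays, 4668 with array weights and 8 to 3611 with 1 array left out, the highest without the untreated array of Elk/Sap KO mouse 3. The Sap KO count of 13 was 47 with array weights and 8 to 27 with 1 array left out. The response difference, 0 genes, gave 8 with array weights, 1 over the mean of probe sets, 0 with mouse as a replicate block (985 against 625 at an unadjusted p under 0.05) and 0 to 1 with 1 array left out. The 3 genes in which the Sap-1 difference depended on Elk-1 became 67 with array weights and 0 to 3 with 1 array left out. The cause was not tested.

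Elk4 differed by −3.29 to −3.06 with 1 array left out and by −1.05 over the mean of its probe sets, called each time. The median of the 45 genes raised in wild type was −0.12 to −0.03 with 1 array left out. Values that changed sign with 1 array left out ranged from −0.1 to 0.24 for Cd69, −0.2 to 0.01 for Elk1 and −0.04 to 0.38 for Srf. The other named genes that were refitted kept their sign under each alternative run. Centring moved the median of all genes by 0.0044.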

Other observations

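Untreated Elk KO cells were not alike in early genes. Elk KO mouse 1 had Egr1 at 7.554 without anti-CD3, against 6.017 and 6.466 in mice 2 and 3, Cd69 at 6.982 against 3.738 and 5.087, and Junb at 7.538 against 6.811 and 6.392. In untreated Elk/Sap KO cells Egr1 was at 6.082, 5.596 and 6.261, Cd69 at 4.745, 3.393 and 4.955 and Junb at 6.006, 6.448 and 6.069. The responses of these genes to anti-CD3 are measured from those levels.

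The stimulated Elk/Sap KO mice differed in how many genes lay away from the Elk KO mean. At least 2-fold lower were 144, 66 and 34 genes in mice 1, 2 and 3, and at least 2-fold higher 65, 50 and 19.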
